A study of Mus musculus with 4 samples.

Results

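The interferon-inducible p200 family, also called the PYHIN family, was described through 9 genes: Aim2, Ifi213, Ifi209, Ifi207, Ifi204, Ifi211, Ifi203, Ifi202b and Ifi205. They were chosen by symbol from the 32285 features of the gene table, with their levels by cell class and library already known, so every level, ratio and count of members below is a description and no test was made on it. Female Balb/c mice carried 2153L, a mammary tumour from a genetically engineered model (GEM) transplanted to the fat pad, and CD45+ immune cells sorted from it by flow cytometry were profiled with the droplet-based 10x method that reads the 3' end of each transcript. There were 4 libraries, 1 for each group, all from mice treated for 8 days. One group received vehicle, one ORIN1001 (150 mg/kg), one docetaxel (20 mg/kg) and one both agents, called the combination. ORIN1001 inhibits the RNase of IRE1α, a sensor of protein folding stress in the endoplasmic reticulum, and docetaxel, a taxane, blocks cell division by stabilising microtubules. The sources used here do not give the number of mice behind a library. With 1 library per group there was no replicate, and no difference below has been checked against the spread between animals.

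Proteins of this family carry a HIN domain, which binds DNA, and most of them join it to a pyrin domain, which binds other pyrin-containing proteins. AIM2 detects double-stranded DNA in the cytosol and recruits the adaptor ASC and caspase-1 into an inflammasome, the complex that activates interleukin-1β and gasdermin D. IFI204 is a mouse relative of human IFI16 and is linked to DNA sensing through STING, whereas p202, the product of Ifi202b, lacks a pyrin domain and holds back AIM2. Interferons induce many of these genes in myeloid cells and lymphocytes, which gave the family its name.

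The 9 genes lie among 13 family genes on chromosome 1, within 680.9 kb from position 173350879 to 174031810 (mm10, GENCODE gene bodies), with 2 on the plus strand and 7 on the minus strand. All are protein-coding. Ifi206 and Ifi214 lie between Aim2 and Ifi213, and Ifi208 between Ifi209 and Ifi207. Aim2 occupies positions 173350879 to 173466040 and overlaps Cadm3 on the other strand. Ifi211 (173896345 to 173913046) and Ifi203 (173920407 to 173942672) both lie within or across Mndal (173849126 to 173942491) on the same strand. Near-identical copies limit what a 3' read can be assigned to. Of the 90-base words in the last 500 bases of each gene's transcripts, 59.4% of those of Ifi211 also occurred in Ifi205 or Mndal, 37.1% of those of Ifi209 in Ifi214, and 29.7% of those of Ifi205 in Ifi211 or Mndal. The share was 7.54% for Ifi213 and 1.05% for Ifi203, and no such word was found for Aim2, Ifi207, Ifi204 or Ifi202b. Counts of Ifi211, Ifi209 and Ifi205 are therefore uncertain as to copy, and the sources used here do not say how reads shared between copies were counted. The reference comes from an inbred strain other than Balb/c.

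Promoter windows of 300 bases were read from the RefSeq table for GRCm38.p6, which held one for 8 of the 9 members; Ifi204 had none. They were searched on both strands for paired GAAA, the core of an interferon-stimulated response element (GAAANNGAAA), for the gamma-activated sequence (TTCNNNGAA) and for a PU.1-IRF composite (GGAANNGAAA), which differs from the first motif in its opening letters only. Paired GAAA was found in 5 of the 8 members and in 3.44% of all 32851 windows of that length. The gamma-activated sequence was found in 1 member and in 8.3% of all windows, and the composite in 0 members and in 2.72% of all windows. A match is a description of the letters, not a binding site. Stretches of 80 bases are shown because they hold the match, or, for Aim2 and Ifi209, which had none, because they end at the base before the RefSeq start. Each is written 5′ to 3′ along the gene's own strand, with paired GAAA or, in Ifi202b, the gamma-activated sequence in capitals.
Ifi213 (chr1:173599273-173599352, minus strand): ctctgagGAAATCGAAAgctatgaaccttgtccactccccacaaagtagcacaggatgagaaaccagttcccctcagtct
Ifi207 (chr1:173741810-173741889, minus strand): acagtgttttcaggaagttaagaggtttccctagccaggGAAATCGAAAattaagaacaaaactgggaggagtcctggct
Ifi211 (chr1:173913047-173913126, minus strand): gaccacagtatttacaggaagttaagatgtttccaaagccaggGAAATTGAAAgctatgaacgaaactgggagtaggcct
Ifi203 (chr1:173942493-173942572, minus strand): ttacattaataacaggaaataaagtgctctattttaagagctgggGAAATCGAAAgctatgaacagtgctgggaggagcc
Ifi205 (chr1:174031845-174031924, minus strand): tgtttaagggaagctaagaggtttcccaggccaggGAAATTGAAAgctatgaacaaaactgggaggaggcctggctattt
Ifi202b (chr1:173982949-173983028, minus strand): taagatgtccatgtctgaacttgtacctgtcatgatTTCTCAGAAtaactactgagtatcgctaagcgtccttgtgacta
Ifi209 (chr1:173630779-173630858, plus strand): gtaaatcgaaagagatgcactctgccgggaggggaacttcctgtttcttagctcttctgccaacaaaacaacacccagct
Aim2 (chr1:173420524-173420603, plus strand): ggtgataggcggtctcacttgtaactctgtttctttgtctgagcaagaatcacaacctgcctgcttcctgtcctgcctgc

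Paired GAAA began 35 bases before the start in Ifi203, 37 in Ifi211, 41 in Ifi207, 73 in Ifi213 and 134 in Ifi205. Among the 10 pairs of these 5 genes, 20 to 27 of 30 aligned bases were identical (median 23), a count that includes the match itself, where the search fixed 8 letters. Ifi209 held a word with 1 changed base 79 bases before its start, G1T counted from the first letter of the motif, and 3 further such words. Aim2 held one 51 bases before its start on the other strand (A3C) and Ifi202b one 25 bases after its start (A9C), but 35.4% of all windows held a match or such a word. The gamma-activated sequence of Ifi202b began 148 bases before its start. The other family genes Ifi206, Ifi208, Ifi214 and Mndal also held paired GAAA, at 40, 58, 79 and 36 bases before their starts. The RefSeq start of Aim2 lies inside the longer GENCODE gene.

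The libraries held 10362, 8839, 8464 and 9109 cell barcodes (vehicle, ORIN1001, docetaxel and combination, the order used for every run of 4 values) and 64257802 to 86383509 UMIs, the counted molecules. After removal of low-quality cells and doublets, 7786 to 9400 cells remained, with medians of 3668 to 4170 UMIs per cell. Of 36072 distinct barcodes, 699 (1.94%) occurred in more than 1 library. Clusters were named from marker genes after grouping the cells without the family genes, so the classes are neutrophil-like, macrophage-like and so on, and this ending is left out below. In the classes of those names, 8 neutrophil markers summed to 34074 to 86851 CPM (UMIs of a gene scaled to a fixed total per class and library) in neutrophils, and 8 macrophage markers to 27364 to 31896 CPM in macrophages. The 6 monocyte markers summed to only 4421 to 5653 CPM in monocytes, where macrophage markers reached 10915 to 14986 CPM. Among 11 genes of the dissociation stress response, such as Nr4a1 and Fos, members of the immediate-early response, 7, 10 and 10 were at least 1.5-fold lower than vehicle in macrophages (ORIN1001, docetaxel, combination) and 11, 7 and 10 in T cells. In monocytes 2, 3 and 10 were lower and in DC 5, 6 and 8. Of all features, 3.08%, 4.66% and 8.25% were lower in macrophages and 4%, 4.05% and 6.49% in T cells. The shares were 2.52%, 4.66% and 6.74% in monocytes and 3.91%, 2.74% and 4.93% in DC. The part of the stress genes in the results below was not tested.

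A ratio between libraries was called past the mark when it was at least 1.5-fold (0.585 on the log2 scale), its exact 95% Poisson interval left out 0, and the higher library held at least 20 UMIs. Intervals, given in parentheses after a log2 ratio, cover counting error only. The same mark was applied to every feature with enough UMIs, and the percentage of all features past it is given beside each count of members. In comparisons with vehicle, just inside the mark lay Ifi209 in macrophages under ORIN1001 (0.59) and Ifi204 in DC under docetaxel (0.60). Just outside lay Ifi211 in NK cells (0.83, -0.21 to 1.94) and Ifi207 in T cells (0.61, -0.36 to 1.72), both for the combination, where the intervals were wide.

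Each member had its own distribution over the 6 classes. Levels are compared below within a gene only, since UMI counts at the 3' end depend on the gene. Aim2 was measured in all classes, and its mean over the 4 libraries ran from 45.2 CPM in macrophages (39.9 to 49.3) through 57.1 in monocytes, 62.4 in DC, 64.4 in neutrophils and 72.1 in T cells to 77.2 in NK cells (65.4 to 87). The ranges of NK and T cells, and of DC, neutrophils and monocytes, overlapped, whereas macrophages lay below every other class in every library.

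Ifi207, Ifi204, Ifi211 and Ifi202b shared a myeloid pattern with monocytes on top. Ifi207 averaged 242 CPM in monocytes (206 to 283), 85.5 in macrophages, 76.3 in DC and 29.6 in neutrophils, but 2.29 in NK cells and 2.14 in T cells. Ifi204 averaged 114 CPM in monocytes (72.4 to 149), 31.3 in DC, 26.5 in macrophages and 5.94 to 7.87 in neutrophils, NK and T cells. Ifi211 averaged 305 CPM in monocytes, 110 in DC, 78 in macrophages, 27.7 in neutrophils, 14.4 in T cells and 13.8 in NK cells, the last pair with overlapping ranges. Ifi202b averaged 140 CPM in monocytes (96.9 to 185), 35.1 in macrophages, 23.7 in DC, 11.3 in neutrophils, 4.21 in T cells and 2.48 in NK cells. For all 4 genes the lowest monocyte library exceeded the highest library of any other class.

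Ifi205, whose product has been linked to expression of the inflammasome adaptor ASC, was a DC and monocyte gene. It averaged 416 CPM in DC (327 to 524) and 217 in monocytes (144 to 307), and the ranges of these classes did not overlap. It stood at 15.4 CPM in macrophages, 3.07 in neutrophils and 0.668 in T cells. In NK cells 0 UMIs were counted in all 4 libraries, which allows up to 1.64, 2.12, 2.8 and 1.65 CPM (3 counts per library).

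Ifi203 and Ifi209 were also lymphocyte genes. Ifi203 averaged 235 CPM in T cells (171 to 330), 226 in monocytes (153 to 305), 160 in NK cells, 138 in DC, 66.9 in macrophages and 13.2 in neutrophils. The T cell and monocyte ranges overlapped. Ifi209 averaged 180 CPM in monocytes (128 to 255), 93.1 in T cells (59.3 to 147, overlapping the monocyte range), 72.5 in DC, 43.9 in NK cells, 18.5 in macrophages and 13.8 in neutrophils. Ifi213 was scarce everywhere, with at most 10.1 CPM in any class and library, and averaged 4.91 CPM in T cells, 4.48 in monocytes and 4.05 in DC. Macrophages stayed at or below 0.3 CPM, and neutrophils held 2, 0, 2 and 0 UMIs of it.

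**Figure D1:**
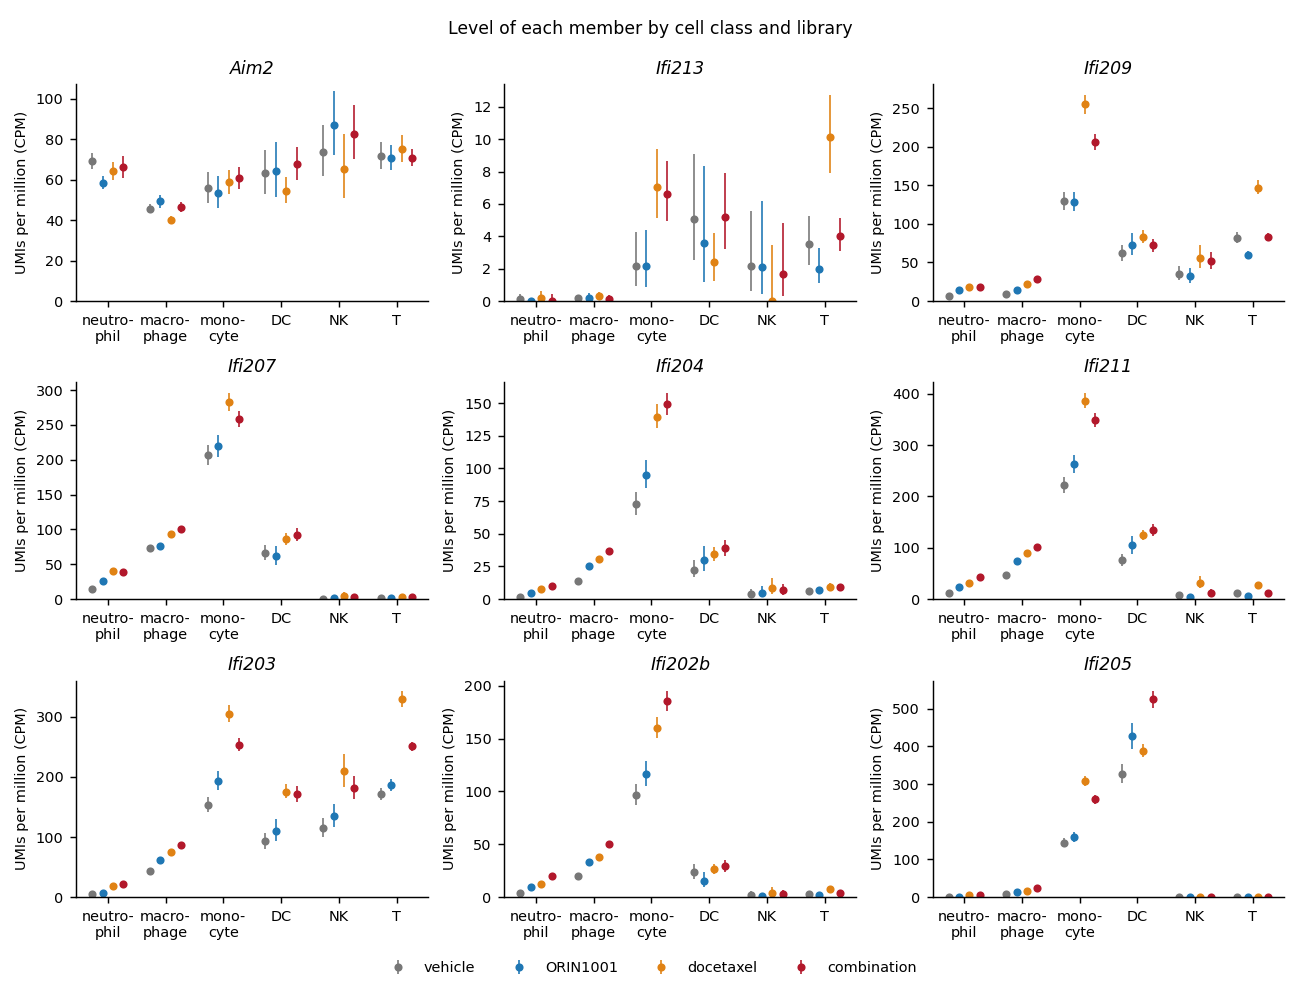
Level of each of the 9 members (vertical axes, CPM) in 6 cell classes (horizontal axes); each point is 1 library, coloured by treatment, and each bar is its exact 95% Poisson interval, which covers counting error only. Monocytes stand above the other classes for Ifi207, Ifi204, Ifi211 and Ifi202b, DC for Ifi205 (327 to 524 CPM), while Aim2 lies between 39.9 and 87 CPM in every class.

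In neutrophils, 7 of the 8 members with enough UMIs were higher with docetaxel than with vehicle and 7 of 8 were higher with the combination, with Aim2 as the exception in both. Ifi202b counted 3.65, 9.48, 12.4 and 19.5 CPM (vehicle, ORIN1001, docetaxel, combination), higher than vehicle in all 3 treated libraries, with the combination on top. Its log2 ratio to vehicle was 1.38 (0.97 to 1.81), 1.76 (1.33 to 2.21) and 2.42 (1.996 to 2.86). Ifi204 counted 1.76, 4.61, 7.87 and 9.89 CPM in the same order, and its log2 ratios were 1.38, 2.16 and 2.49 (1.87 to 3.13). Ifi211 counted 12.4, 24.1, 32.2 and 42.1 CPM, with log2 ratios of 0.95, 1.38 and 1.76 (1.51 to 2.01). Both genes thus ranked the libraries in 1 order, from vehicle through ORIN1001 and docetaxel to the combination. For Ifi204 the intervals of docetaxel (6.36 to 9.63 CPM) and the combination (7.86 to 12.3 CPM) overlapped.

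Other members differed in where ORIN1001 alone stood. Ifi207 counted 14, 25.6, 39.8 and 39.1 CPM and Ifi209 counted 6.15, 13.9, 17.7 and 17.7 CPM, so that docetaxel and the combination were level. Ifi203 counted 5.24, 6.78, 18.4 and 22.2 CPM, and its log2 ratio to vehicle was 0.37 (-0.01 to 0.76) for ORIN1001, not past the mark, but 1.81 and 2.08 for the others. Ifi205 rested on 15, 18, 60 and 46 UMIs and had log2 ratios of 2.56 (1.72 to 3.48) for docetaxel and 2.72 (1.85 to 3.67) for the combination. The 2 libraries that received docetaxel stood together above the other 2 for Ifi203 and Ifi205.

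Counted over the class, 5 of 7 members were higher with ORIN1001, beside 3.13% of all features, and the members' median log2 ratio was 0.95 against -0.10 for all features. The 7 of 8 for docetaxel stood beside 9.98% (medians 1.64 and 0.12), and the 7 of 8 for the combination beside 14.7% (medians 1.92 and 0.05). Set against docetaxel, the combination was higher for 1 of 8 members, Ifi202b (0.66, 0.33 to 0.99), beside 4.86% of all features, and that member was at -0.05 outside the cluster described next. Set against ORIN1001, it was higher for 6 of 8, beside 20.3%, for 3 when cells were thinned to 1000 UMIs and for 2 outside that cluster. The 3 comparisons with vehicle share the vehicle library.

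**Figure D2:**
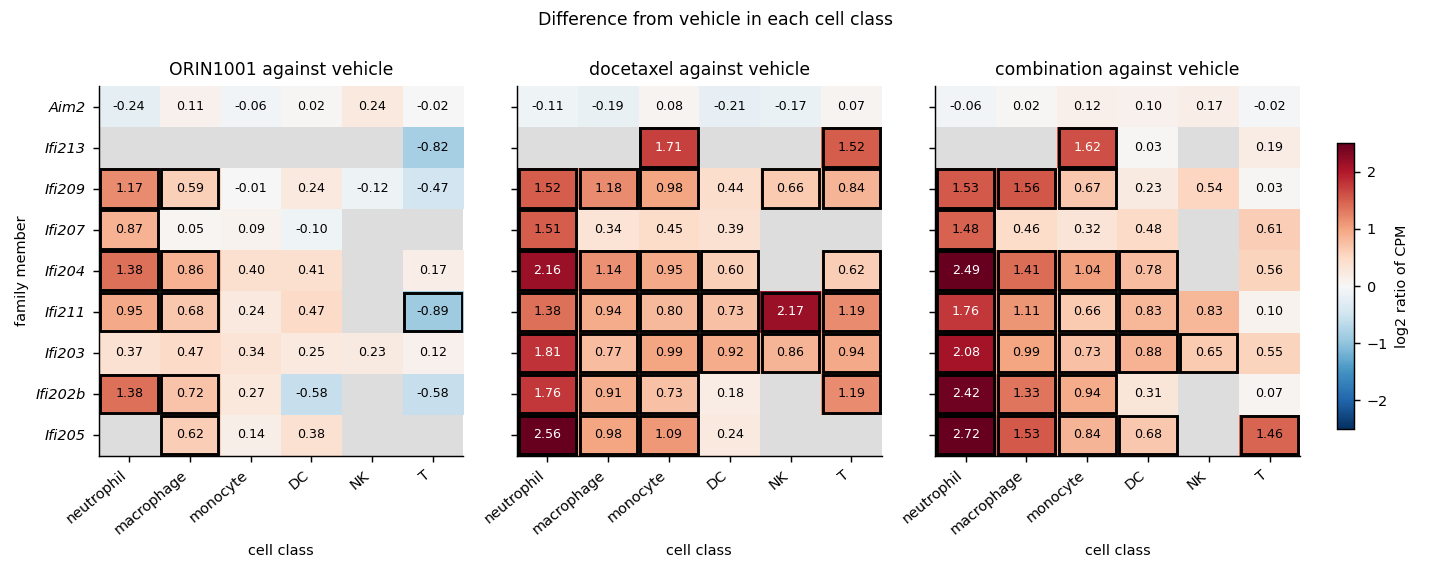
Log2 ratio of CPM to vehicle for the 9 members (rows) in 6 cell classes (columns), with 1 panel per treated library; black frames mark ratios past the 1.5-fold mark and grey cells have too few UMIs. Docetaxel and the combination frame most members in neutrophils, macrophages and monocytes, and Aim2 has no frame. For the combination, the ratio of Ifi205 in T cells (1.46) uses 3 counts in place of the 0 UMIs of vehicle. It leaves out the counting error of the other library.

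The neutrophil class was not made up alike in the 4 libraries. Cluster 3, led by the interferon-response genes Cxcl10, Gbp5, Gbp2b, Ifit3b and Ifit1 and described after it was seen, held 5.24% of neutrophils in vehicle (4.65 to 5.87, exact binomial interval), 11.8% with ORIN1001, 24.7% with docetaxel and 52.3% with the combination (50.6 to 54). Cluster 1 was the largest in vehicle (1664 of 5310 cells) and with ORIN1001 (1909 of 5682), and cluster 6 with docetaxel (1078 of 4196). Inside cluster 3 Ifi202b counted 23.9, 26.7, 23.8 and 28.1 CPM, close to level across libraries. Ifi211 counted 56.2, 81.3, 63.1 and 54 CPM and Ifi203 43.1, 31.8, 48.3 and 32.3 CPM. Aim2 counted 62.2, 64.5, 51.6 and 57.6 CPM inside and 69.4, 57.8, 68.4 and 77.3 CPM outside. It was lower inside than outside in vehicle, with docetaxel and with the combination, and higher inside with ORIN1001.

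Outside cluster 3 vehicle still held the lowest levels of the members other than Aim2, Ifi205 and Ifi213. Ifi211 counted 10.2, 17.5, 21.7 and 26.4 CPM and Ifi202b 2.63, 7.51, 8.52 and 8.24 CPM. Among 7 members measured there, 5, 6 and 6 were past the mark (ORIN1001, docetaxel, combination), beside 2.92%, 10.9% and 20.7% of all features, an alternative chosen after seeing the data. The members' medians there were 0.77, 1.31 and 1.36, against -0.11, 0.19 and 0.27 for all features. Ifi209 was among those 6 for the combination, at 0.72 (0.03 to 1.37), less than its 1.53 over the class. Within the single neutrophil clusters where it had enough UMIs, its log2 ratio for the combination was -1.01 (-6.35 to 1.55) in cluster 1 and -0.51 (-1.09 to 0.12) in cluster 3, and both intervals spanned 0.

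Macrophage, monocyte and neutrophil markers also differed between the libraries. Summed macrophage markers in the neutrophil class stood at 376, 173, 472 and 604 CPM, which is 1.18%, 0.631%, 1.54% and 2.06% of the level in macrophages. Ifi211 in neutrophils stood at 26.5% to 41.8% of its macrophage level and Ifi207 at 19.2% to 43%. Monocyte markers in the neutrophil class summed to 543, 1172, 880 and 1209 CPM, against 4421, 5653, 4652 and 5238 CPM in monocytes. They were thus higher than vehicle in every treated library. Neutrophil markers themselves summed to 75748, 86851, 39912 and 34074 CPM. The part of these 3 marker sets in the results was not tested.

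**Figure D3:**
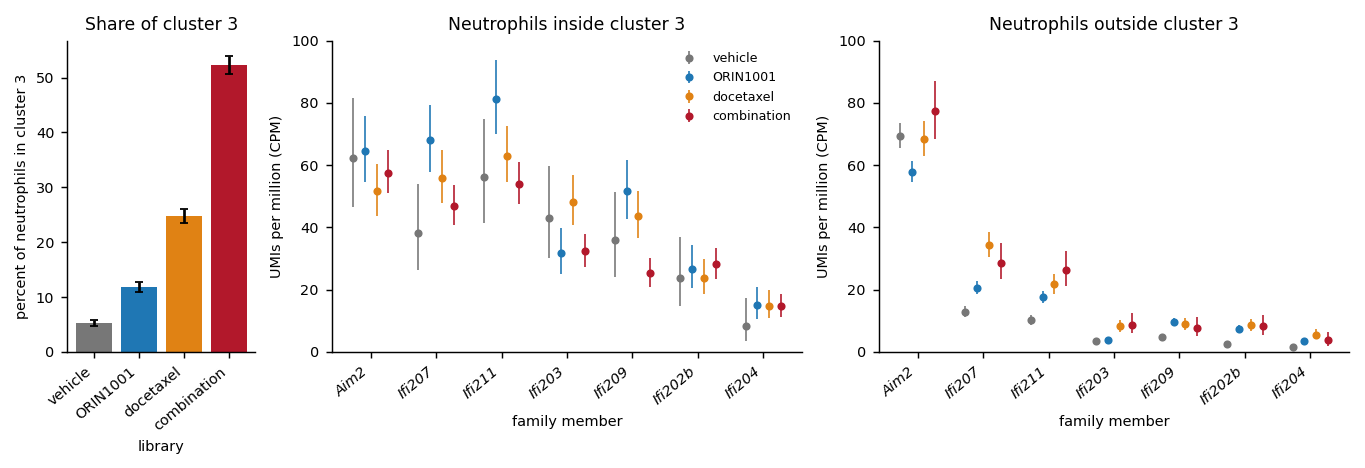
Left, percent of neutrophils in cluster 3 for each library with exact 95% binomial intervals; middle and right, CPM of 7 members inside and outside that cluster with exact 95% Poisson intervals. The share runs from 5.24% in vehicle to 52.3% in the combination, and Aim2 lies between 51.6 and 77.3 CPM on both sides.

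In macrophages 6 of 8 members were higher than vehicle with docetaxel and 6 of 8 with the combination, namely Ifi209, Ifi204, Ifi211, Ifi203, Ifi202b and Ifi205. Ifi209 counted 9.57, 14.4, 21.7 and 28.2 CPM, with log2 ratios to vehicle of 0.59 (0.37 to 0.82), 1.18 (1.001 to 1.36) and 1.56 (1.38 to 1.74). Ifi204 counted 13.8, 25.2, 30.4 and 36.7 CPM, with ratios of 0.86, 1.14 and 1.41 (1.26 to 1.56). Ifi205 counted 8.35, 12.8, 16.5 and 24.1 CPM, with ratios of 0.62, 0.98 and 1.53 (1.34 to 1.72). All 3 genes set the libraries in 1 order from low to high, vehicle, ORIN1001, docetaxel, combination, and so did Ifi211 (46.8, 74.9, 89.6 and 101 CPM), Ifi203 (44, 61, 75.3 and 87.4 CPM) and Ifi202b (19.9, 32.9, 37.5 and 50.1 CPM). Ifi207, at 73.1, 75.6, 92.7 and 100 CPM, had the same order but stayed under the mark (0.46, 0.38 to 0.54, for the combination).

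The counts were 5 of 8 for ORIN1001 beside 4.74% of all features, 6 of 8 for docetaxel beside 3.66% and 6 of 8 for the combination beside 5.96%. The members' medians were 0.61, 0.92 and 1.22, against 0.01 at most for all features. Ifi211 and Ifi203 were above vehicle in 4 of 4 macrophage clusters, and Ifi209, Ifi204, Ifi202b and Ifi205 in 3 of 3 clusters with enough UMIs, in each treated library. Against docetaxel, 0 of 8 members were past the mark for the combination (3.45% of all features), although all 8 intervals lay above 0, with Ifi205 at 0.55. Against ORIN1001, Ifi209, Ifi205 and Ifi202b were past it (3 of 8, beside 4.05%), a count that was 5 to 7 under 5 alternatives. The count for ORIN1001 was 3 under 4 alternatives and 1 after thinning to 1000 UMIs, and the count for docetaxel was 3 after thinning.

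In monocytes docetaxel stood highest for 6 of the 9 members and the combination for 3. Ifi203 counted 153, 194, 305 and 254 CPM, with log2 ratios of 0.34, 0.99 (0.86 to 1.13) and 0.73 (0.59 to 0.87). Ifi205 counted 144, 159, 307 and 259 CPM, with ratios of 0.14, 1.09 (0.95 to 1.23) and 0.84. Ifi204 counted 72.4, 95.2, 140 and 149 CPM, with ratios of 0.40, 0.95 and 1.04 (0.85 to 1.24). The 2 docetaxel-treated libraries were above the other 2 for each of these genes, and for Ifi213 too, which rested on 8, 7, 45 and 52 UMIs (1.71, 0.61 to 3.003, for docetaxel).

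Past the mark were 0 of 8 members with ORIN1001 (4.56% of all features), 7 of 9 with docetaxel (5.12%) and 7 of 9 with the combination (6.34%), where Ifi207 and Aim2 were the exceptions. Members' medians were 0.19, 0.95 and 0.73, against -0.02 to 0.06 for all features. The combination was past the mark for 0 of 9 members against docetaxel (2.59%) and for 5 of 9 against ORIN1001 (3.7%). With an automatic doublet threshold, under which the class held 443, 277, 644 and 959 cells in place of 282, 189, 355 and 439, the count for the combination against vehicle was 0, and that against ORIN1001 was 0.

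In DC the levels of Ifi205 were 327, 426, 387 and 524 CPM, with a log2 ratio to vehicle of 0.38 (0.22 to 0.54) for ORIN1001, 0.24 for docetaxel and 0.68 (0.56 to 0.81) for the combination. The combination was the single library past the mark for it. Ifi203 counted 93, 110, 176 and 171 CPM and Ifi211 from 75.5 CPM in vehicle to 134 CPM with the combination, both past the mark with docetaxel (0.92 and 0.73) and with the combination (0.88 and 0.83). Ifi204 was past it as well, at 0.60 and 0.78. The counts were 0 of 8 with ORIN1001 (4.49% of all features), 3 of 8 with docetaxel (5.06%; 1 of 8 among cells under 5% mitochondrial UMIs) and 4 of 9 with the combination (5.59%). Against docetaxel the combination was past the mark for 1 of 9, Ifi213 with 21 and 12 UMIs (3.6%), and for 0 under 8 alternatives. Against ORIN1001 it was past the mark for Ifi202b, Ifi203 and Ifi207 (3 of 9, beside 3.71%), and for 0 after thinning. The class joined mature and conventional DC, and its markers differed between libraries. Mature DC markers summed to 1754, 2021, 2027 and 837 CPM, and those of conventional DC to 1165, 1477, 830 and 1433 (type 1) and 383, 255, 411 and 431 (type 2). Monocyte markers summed to 816, 1150, 1034 and 1743 CPM, and the part of this make-up in the results was not tested.

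NK cells had 3 or 4 members with enough UMIs. Ifi203 counted 116, 135, 209 and 181 CPM, past the mark with docetaxel (0.86, 0.58 to 1.14) and with the combination (0.65, 0.40 to 0.91). Ifi211 rested on 13, 5, 34 and 23 UMIs and was past it with docetaxel alone (2.17, 1.21 to 3.21), which also stood above the combination (-1.33 for the combination against docetaxel). Ifi209 counted 35.4, 32.5, 56.1 and 51.6 CPM, with 0.66 (0.13 to 1.19) for docetaxel. The counts were 0 of 3 with ORIN1001 (3.05% of all features), 3 of 4 with docetaxel (4.82%), 1 of 4 with the combination (5.94%), 0 of 4 for the combination against docetaxel (3.41%; 1 lower, beside 3.07%) and 2 of 4 against ORIN1001 (5.49%). After thinning to 1000 UMIs no member was past the mark in NK cells for docetaxel or the combination.

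T cells set the libraries in another order, with docetaxel highest for all 9 members, though not always by more than counting error. For Ifi204 (9.394 against 9.055 CPM), Ifi207 (2.704 against 2.579) and Ifi205 (1.281 against 1.259) docetaxel and the combination were level within counting error. Aim2 ran only from 70.8 to 75.2 CPM over the libraries. Ifi203 counted 171, 186, 330 and 251 CPM, with log2 ratios to vehicle of 0.12 (0.00 to 0.23), 0.94 (0.84 to 1.05) and 0.55 (0.46 to 0.65). Ifi209 counted 82.2, 59.3, 147 and 83.7 CPM, with ratios of -0.47, 0.84 (0.69 to 0.99) and 0.03 (-0.12 to 0.17). Ifi211 counted 11.8, 6.37, 26.9 and 12.6 CPM, with ratios of -0.89 (-1.44 to -0.35), 1.19 (0.80 to 1.59) and 0.10 (-0.29 to 0.49). For Ifi209 and Ifi211, vehicle and the combination were thus level within counting error, ORIN1001 stood below both and docetaxel above. Ifi213, on 23, 15, 71 and 67 UMIs, followed the same order (1.52, 0.83 to 2.27, for docetaxel).

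Higher with docetaxel were 6 of 7 members, Aim2 excepted, beside 6.4% of all features (medians 0.94 and 0.03). That count was 3 among cells under 5% mitochondrial UMIs, 3 after clustering without interferon genes and 3 after thinning to 1000 UMIs. The class held 633, 572, 619 and 1524 cells under the first of these and 669, 601, 643 and 1545 under the second, in place of 1041, 951, 1118 and 2377. With ORIN1001 0 of 7 were higher (6.26%) and 1, Ifi211, was lower (4% of all features; medians -0.47 and 0.07). With the combination 1 of 9 was higher (6.84%), Ifi205 with 21 UMIs against 0. Its ratio was 2.74-fold with 3 counts in place of 0, a value that leaves out the counting error of the 21 UMIs. On the log2 scale the value fell below 0 within clusters and after thinning, where vehicle again held 0 UMIs and no direction can be read. With each cell assigned singly to a class, vehicle held UMIs of Ifi205 and the ratio was -1.26 (-2.27 to -0.25). Against docetaxel the combination was higher for 0 of 9 (2.37%) and lower for 4 (4.48%), at -1.33 in Ifi213, -1.12 in Ifi202b, -1.09 in Ifi211 and -0.82 in Ifi209. Against ORIN1001 it was higher for 3 of 9 (2.53%), Ifi205, Ifi213 and Ifi211.

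**Figure D4:**
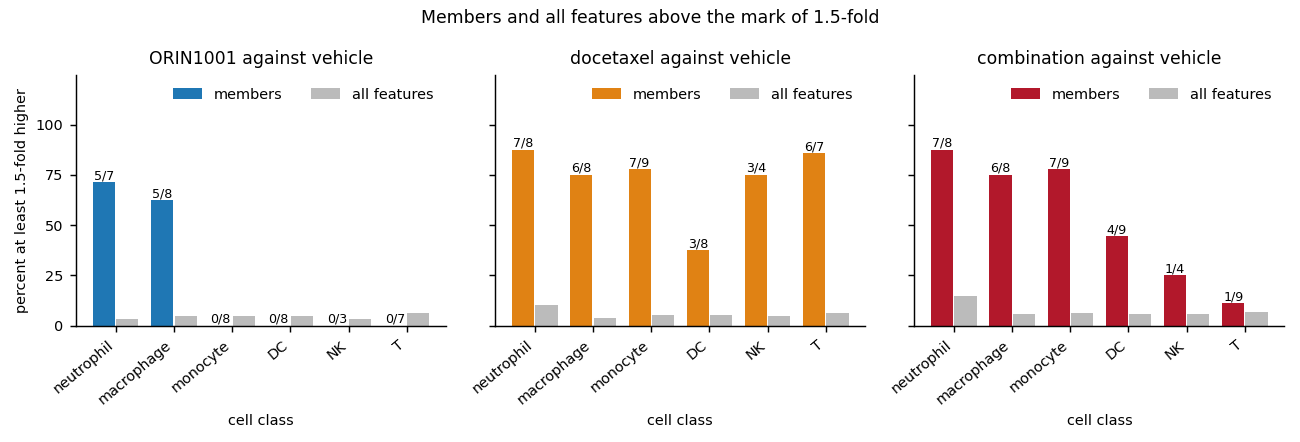
Percent of members (coloured bars, with the count over each) and of all measured features (grey bars) at least 1.5-fold higher than vehicle, by cell class (horizontal axes), with 1 panel per treated library. Under ORIN1001 the members past the mark lie in neutrophils (5 of 7) and macrophages (5 of 8), and in T cells 6 of 7 are past it under docetaxel and 1 of 9 under the combination.

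The T cell class was divided by markers into subsets, of which CD8 T cells were the largest. Within them Ifi209 counted 123, 62.5, 190 and 84.9 CPM, with log2 ratios to vehicle of -0.98 (-1.21 to -0.74), 0.62 (0.44 to 0.81) and -0.53 (-0.71 to -0.36). Ifi211 counted 18.3, 6.42, 38 and 12.6 CPM there, with -1.51, 1.05 and -0.54. Both genes were thus lower than vehicle with ORIN1001 and higher with docetaxel. Other subsets differed: in gamma-delta T cells Ifi203 counted 81.2, 178, 199 and 266 CPM and was past the mark in all 3 treated libraries, and in conventional CD4 T cells it counted 120, 182, 327 and 222 CPM, also past the mark in all 3. The gamma-delta subset joined a subcluster led by Trdv4 (131, 5, 36 and 73 cells) and another (121, 69, 76 and 149 cells), so its make-up differed between libraries. The difference between subsets was not tested. In regulatory T cells Ifi203 counted 197, 211, 361 and 305 CPM. In CD8 T cells it counted 229, 193, 382 and 247 CPM, below vehicle with ORIN1001 (-0.245, -0.396 to -0.093).

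A subcluster of CD8 T cells led by Isg15, an interferon-induced ubiquitin-like protein, and described after it was seen, held 19%, 8.26%, 36.9% and 15.6% of them (exact 95% intervals 15.4 to 23, 5.91 to 11.2, 32.9 to 41.1 and 13.7 to 17.6). The libraries stood in the same order by this share as by the levels of Ifi209 and Ifi211 in all CD8 T cells. Inside the subcluster Ifi203 counted 631, 860, 796 and 811 CPM and Ifi209 464, 434, 471 and 379 CPM. Outside it Ifi203 counted 160, 150, 213 and 188 CPM, Ifi209 64.7, 38.9, 74.1 and 54.3 CPM, and Ifi211 at most 6.06 CPM. Every library held more of these 3 genes inside than outside, and Aim2 lay at 81.9 to 116 CPM inside and 68.6 to 77.4 CPM outside. The genes that define a cluster were used to find it, so these values are a description. Neutrophil markers in T cells summed to 398, 639, 171 and 66.8 CPM and macrophage markers to 183, 88.3, 174 and 174 CPM. Monocyte markers there summed to 1129, 1083, 1813 and 1254 CPM, highest with docetaxel and lowest with ORIN1001. The part of these markers in the results was not tested.

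**Figure D5:**
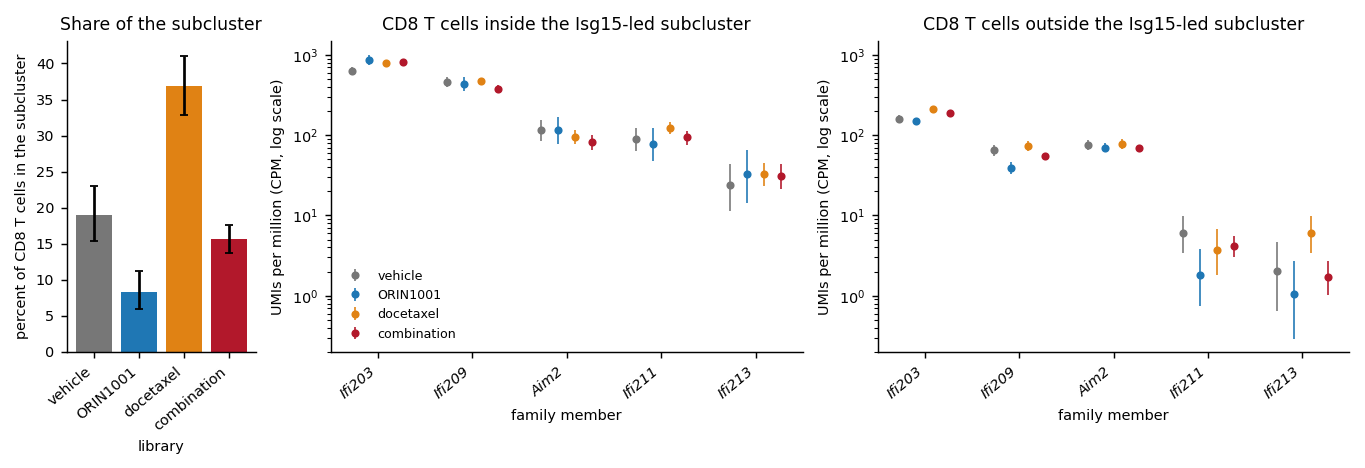
Left, percent of CD8 T cells in the Isg15-led subcluster with exact 95% binomial intervals; middle and right, CPM (log axes) of 5 members inside and outside it, with exact 95% Poisson intervals, for each library. The share is 36.9% with docetaxel against 8.26% with ORIN1001, and Ifi211 and Ifi213 lie at most at 6.06 CPM outside the subcluster.

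Aim2, the inflammasome sensor, stayed under the mark in every class. Over the 18 comparisons of a treated library with vehicle (6 classes, 3 libraries) it was past the mark in 0 of 18 and positive in 9. In macrophages it counted 45.6, 49.3, 39.9 and 46.3 CPM, and in neutrophils 69.1, 58.5, 64.1 and 66.1 CPM (-0.24, -0.35 to -0.13, for ORIN1001). Within the 4 macrophage clusters, Aim2 with docetaxel was below vehicle in each, with every interval below 0. The ratios ran from -1.123 (-2.208 to -0.138) to -0.152 (-0.279 to -0.025). It was above vehicle in 3 of the 4 with ORIN1001 and in 1 with the combination. By contrast Ifi211 was higher in 12 of 17 comparisons with enough UMIs and lower in 1, Ifi204 higher in 11 of 15, Ifi203 in 11 of 18, Ifi209 in 10 of 18, Ifi205 in 9 of 12, Ifi202b in 9 of 15, Ifi207 in 3 of 13 and Ifi213 in 3 of 6. Ifi203 was above vehicle in 18 of 18, but its interval for ORIN1001 spanned 0 in neutrophils, DC and NK cells.

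The family genes outside the 9 members were read from the same table. In macrophages Ifi208 counted 2.11, 4.05, 6.19 and 6.79 CPM and Ifi214 3.3, 3.9, 10.9 and 9.95 CPM, which set the docetaxel-treated libraries on top. In neutrophils Mndal, which shares words with Ifi211 and Ifi205, counted 2.96, 3.59, 10.1 and 11.7 CPM (1.99 for the combination against vehicle). In T cells Ifi206 counted 19.1, 13.9, 36 and 19.7 CPM, Ifi214 94.6, 71.7, 188 and 114 CPM, and Ifi208 94.9, 71.5, 160 and 102 CPM. All 4 of these genes were past the mark with docetaxel in T cells (0.91, 0.99, 0.75 and, in Mndal, 0.68), beside 6.4% of all features higher. None was with the combination or ORIN1001, beside 6.84% and 6.26% of all features higher.

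Lists of genes that act around this family were counted with the same mark, and they too were drawn up with earlier results of these data known. Of 22 type I interferon-stimulated genes, 8, 22 and 21 were higher than vehicle in neutrophils (ORIN1001, docetaxel, combination; medians 0.46, 1.07 and 1.31), beside 3.13%, 9.98% and 14.7% of all features. In T cells 1, 21 and 0 were higher and 3, 0 and 0 lower (medians -0.25, 0.99 and 0.17), beside 6.26%, 6.4% and 6.84% of all features higher and 4%, 4.05% and 6.49% lower. In monocytes 0, 20 and 17 were higher, beside 4.56%, 5.12% and 6.34%. For docetaxel in T cells the largest ratios were those of Oas2, an RNase L activator (6.73 to 20.5 CPM, 1.61), Ifit3b (36.1 to 94.5 CPM, 1.39), Oas1a (1.19) and Ifit3 (1.17). In DC 0, 9 and 3 were higher, beside 4.49%, 5.06% and 5.59% of all features, and 8, 0 and 2 lower, beside 3.91%, 2.74% and 4.93%.

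The interferon-gamma-stimulated list was counted in the same way. In macrophages 16, 11 and 18 of its 18 genes were higher than vehicle (medians 1.15, 0.85 and 1.63), beside 4.74%, 3.66% and 5.96% of all features. In neutrophils 16 of 17, 15 of 16 and 18 of 18 were (medians 1.32, 1.36 and 2.69), beside 3.13%, 9.98% and 14.7%. In macrophages with the combination Iigp1, an immunity-related GTPase, stood at 52.9 CPM against 3.02 in vehicle (4.13), Cxcl9 at 184 against 23.2 CPM (2.99), Gbp2 at 126 against 19.2 CPM (2.71) and Gbp4 at 48.6 against 9.85 CPM (2.30). In T cells 0 of 16, 7 of 16 and 3 of 18 were higher, beside 6.26%, 6.4% and 6.84%.

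DNA-sensing genes other than the family were led by Zbp1, a sensor of left-handed nucleic acids, which stood at 781 against 159 CPM in neutrophils for the combination (2.30) and at 200 against 59.4 CPM in macrophages (1.75). Of the 12 genes of that list in the table, 5 were higher in neutrophils (14.7% of all features) and 3 in macrophages (5.96%) for the combination, Tmem173 (STING) among them at 0.81 and 0.60. Samhd1, which removes nucleotides needed for DNA synthesis, stood at 1333 against 424 CPM in neutrophils (1.65). Dnase1l3, a secreted DNase, stood at 33.3 against 7.26 CPM in monocytes with docetaxel (2.20).

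The inflammasome list holds genes that act with or after AIM2, such as Casp1, and also sensors of other inflammasomes, Nlrp3, Naip5 and Nlrc4. In neutrophils 5 of its 10 genes were higher with the combination (14.7% of all features) and 0 lower, with Naip5 at 11.4 against 3.19 CPM (1.83) and Casp1, the caspase that AIM2 engages, at 90.8 against 34.8 CPM (1.38). In macrophages 3 were higher (5.96% of all features), Casp1 among them (0.72), and 4 lower (8.25% of all features): Il1b stood at 744 against 1711 CPM (-1.20) and Nlrp3 at 36.8 against 78.9 CPM (-1.10). Irf1, a transcription factor of the interferon response, stood at 1094 against 259 CPM (2.08) in neutrophils with the combination. Of 10 housekeeping genes at most 1 was past the mark in any class against vehicle, and it was lower.

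Detection per cell was read after thinning each cell to 1000 UMIs, because depth differed between classes. At least 1 member was then detected in 54.6%, 59.8%, 73.2% and 75.1% of monocytes, and at least 2 members in 20.6%, 28.6%, 48.9% and 45.3%. In macrophages the share with any member was 20.7%, 26.8%, 29.7% and 35.9% (unthinned 85.7% to 93.7%), in T cells 29.9%, 31.5%, 41.9% and 35.9% (unthinned 71% to 84.2%) and in neutrophils 9.87%, 11.2%, 12.9% and 14.9% (unthinned 23.4% to 27.4%). In macrophages and neutrophils the libraries stood in 1 order from vehicle to the combination, while in T cells docetaxel had the highest share. The intervals of ORIN1001 and docetaxel overlapped in macrophages, and those of each neighbouring pair in neutrophils. In DC the share was 41.1%, 54.4%, 48.3% and 57%, and in NK cells 21.8% to 25.4%. All intervals overlapped in NK cells. In DC only vehicle (33.1 to 49.3) and the combination (50.5 to 63.3) were apart. Between 146 and 171 neutrophils, 12 to 21 macrophages and 11 to 32 T cells per library held fewer UMIs and were left out. As a measure of free RNA, Ifi207, a myeloid gene, was detected in 0% to 0.384% of thinned T cells, against 6.77% to 10.6% of macrophages, at unthinned medians of 4910.5 to 5860 and 17412.5 to 24506.5 UMIs. Any member was detected in 2.13% of thinned vehicle cells of the epithelial or tumour class (0.259 to 7.48, exact binomial interval). In the treated libraries that share was higher, at 7.41% with ORIN1001 (0.91 to 24.3), 22.6% with docetaxel (9.59 to 41.1) and 14.1% with the combination (6.97 to 24.4).

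Likeness to other genes was described over 24 points (6 classes by 4 libraries) among 6323 genes, as Pearson's r of log2(CPM + 1). The points share libraries, depth and class, so r mostly reports distribution over classes. The closest gene was Ms4a4c for Ifi204 (0.95), Phf11d for Ifi211 (0.95), Batf3, a transcription factor of conventional DC, for Ifi205 (0.95), Acer3 and Pnp for Ifi207 (0.97 each), Asb13 for Ifi203 (0.97), Slc25a22 for Ifi209 (0.94), Capza2 for Ifi202b (0.96), Atp2a3 for Aim2 (0.90) and Ddhd1 for Ifi213 (0.83). Among the 36 pairs of members the median r was 0.39 (-0.72 to 0.97). After each class was centred on its own mean, so that only differences between libraries remained, the median was 0.70 (-0.32 to 0.93) and 22 pairs were above 0.5. The centred r with Ifit3, an interferon-induced gene, was 0.68 to 0.88 for Ifi209, Ifi207, Ifi204, Ifi211, Ifi203, Ifi202b and Ifi205, 0.22 for Ifi213 and -0.22 for Aim2.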

How the data were processed

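The deposited values were UMI counts per gene and cell in 4 filtered matrices, made by the authors with Cell Ranger 5.0.1 per the file headers; mm10 and Seurat 4.0.1 are named in the submitters' processing notes, and the annotation release is not given in the sources used here. From them, barcodes with at least 200 genes and under 10% mitochondrial UMIs were kept, and doublets were scored with Scrublet in scanpy 1.11.5, removing the top 0.8% per 1000 cells in every library. Cells were clustered (2000 variable genes less the family genes, 30 components, 15 neighbours, Leiden resolution 1) and the 23 clusters named from marker lists; 1 cluster of 159 cells stayed unnamed. UMIs were summed per library and class as CPM, with exact 95% Poisson intervals (scipy 1.17.1), and a count of 0 was set to 3 counts per library in ratios. No statistical test was possible with 1 library per group, and the ratio step was tested on simulated data. All 9 members are named; of each pathway list up to 4 genes past the mark with the largest ratios. Members and lists were chosen with earlier results of these data known. Alternatives covered clustering resolution, TMM factors (edgeR 4.0.16), minimum UMIs, doublets, mitochondrial share, thinning, gating of single cells and equal weight per cell.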

Additional observations from a re-analysis of the deposited data

Results flagged for a closer look

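Ifi211 with ORIN1001 against vehicle was positive in neutrophils (log2 ratio 0.955, 12.4 and 24.1 CPM) and macrophages (0.677, 46.8 and 74.9 CPM) and negative in T cells (-0.888, 11.8 and 6.37 CPM), each past the mark; the difference between classes was not tested. A share of the 3' words of Ifi211 (59.4%) also occurs in Ifi205 or Mndal.

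Classes that no comparison of the report uses also held members past the mark. In plasmacytoid DC (69, 31, 118 and 165 cells), ORIN1001 stood above vehicle for Ifi209 (0.878) and Ifi203 (0.690), 2 of 5 members measured, beside 5.25% of all features. Docetaxel stood above vehicle for Ifi209 (0.942), Ifi207 (0.824), Ifi211 (0.981), Ifi203 (1.090) and Ifi205 (1.521), 5 of 7 measured, beside 3.57%. The combination was below vehicle in this class for Ifi207 (-0.762) and Ifi211 (-1.251), 2 of 5 measured, beside 3.25% of all features lower, and 0 of 5 were higher (3.94%). Macrophage markers summed to 133, 1309, 160 and 208 CPM there and neutrophil markers to 328, 1565, 203 and 52.5 CPM, and their part was not tested.

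In the epithelial or tumour class (106, 29, 38 and 89 cells, left over from a CD45+ sort), docetaxel stood above vehicle for Ifi211 (4.257, 66 against 3.46 CPM, from 20 and 10 UMIs). It was the 1 member measured there, beside 9.28% of all features. The combination stood above vehicle for Ifi211 (4.295, 97 and 10 UMIs), Ifi203 (3.705, 58 and 9 UMIs), Ifi204 (3.395, 26 and 5 UMIs) and Ifi202b (2.991, 55 and 14 UMIs). These were 4 of 4 members measured, beside 8.96% of all features. Macrophage markers in this class summed to 142, 1440, 825 and 984 CPM, median UMIs were 20781.5, 8490, 3073.5 and 6406, and their part was not tested.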

How the results depend on the processing

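Of the 98 ratios of members past the mark, recomputed under 12 alternatives as 1104 values, 1087 kept their sign. Of the other 17, 9 had a comparator at 0 UMIs, and in the remaining 8 the comparator was above 0. For those 9 the value uses 3 counts in place of 0 and is labelled bound below. It leaves out the counting error of the other library, and no direction can be read from it. Dropping the minimum of UMIs moved none of the 30 counts of members by over 1.5 times. The counts that moved are given below with the reported count in parentheses, each as the combination or agent against its comparator, and the cause was not tested except that thinning leaves fewer UMIs. At a clustering resolution of 0.5, the count was in macrophages 3 (5) for ORIN1001 to vehicle, 6 (3) for combination to ORIN1001, in T cells 0 (1) for combination to vehicle. At a resolution of 2, the count was in macrophages 3 (5) for ORIN1001 to vehicle, 7 (3) for combination to ORIN1001, in monocytes 2 (0) for ORIN1001 to vehicle, 2 (5) for combination to ORIN1001, in T cells 0 (1) for combination to vehicle. With TMM factors, the count was in DC 0 (1) for combination to docetaxel, in NK cells 0 (1) for combination to vehicle. With at least 50 UMIs, the count was in DC 0 (1) for combination to docetaxel, in NK cells 1 (2) for combination to ORIN1001, in T cells 0 (1) for combination to vehicle. With the automatic doublet threshold, the count was in macrophages 2 (0) for combination to docetaxel, in monocytes 0 (7) for combination to vehicle, 0 (5) for combination to ORIN1001, in DC 0 (1) for combination to docetaxel, in T cells 0 (1) for combination to vehicle, 5 (3) for combination to ORIN1001. Without doublet removal, the count was in macrophages 7 (3) for combination to ORIN1001, in monocytes 1 (0) for ORIN1001 to vehicle, in DC 0 (1) for combination to docetaxel, in NK cells 3 (1) for combination to vehicle, in T cells 1 (0) for combination to docetaxel. Among cells under 5% mitochondrial UMIs, the count was in macrophages 3 (5) for ORIN1001 to vehicle, 5 (3) for combination to ORIN1001, in DC 1 (3) for docetaxel to vehicle, 0 (1) for combination to docetaxel, in NK cells 0 (1) for combination to vehicle, in T cells 3 (6) for docetaxel to vehicle, 3 (1) for combination to vehicle, 1 (3) for combination to ORIN1001. The value was negative there for Ifi202b in T cells (-0.589, docetaxel to vehicle). After clustering without the interferon lists, the count was in DC 0 (1) for combination to docetaxel, in T cells 3 (6) for docetaxel to vehicle, 2 (1) for combination to vehicle, 1 (3) for combination to ORIN1001. The value was negative there for Ifi202b in T cells (-0.176, docetaxel to vehicle). Averaged within clusters, the count was in neutrophils 0 (1) for combination to docetaxel, in T cells 2 (1) for combination to vehicle. The value was negative there for Ifi205 in T cells (bound -0.882, combination to vehicle), Ifi205 in T cells (-0.096, combination to ORIN1001). With each cell assigned singly to a class, the count was in macrophages 1 (0) for combination to docetaxel, 6 (3) for combination to ORIN1001, in monocytes 1 (0) for ORIN1001 to vehicle, in DC 1 (0) for ORIN1001 to vehicle, 0 (1) for combination to docetaxel, in NK cells 1 (0) for ORIN1001 to vehicle, 2 (1) for combination to vehicle, 1 (2) for combination to ORIN1001. The value was negative there for Ifi205 in T cells (-1.263, combination to vehicle). With equal weight per cell, the count was in macrophages 3 (5) for ORIN1001 to vehicle, in monocytes 1 (0) for ORIN1001 to vehicle, 3 (5) for combination to ORIN1001, in DC 2 (0) for ORIN1001 to vehicle, in NK cells 0 (1) for combination to vehicle, 1 (2) for combination to ORIN1001, in T cells 4 (1) for combination to vehicle, 6 (3) for combination to ORIN1001. After thinning to 1000 UMIs, the count was in neutrophils 3 (6) for combination to ORIN1001, in macrophages 1 (5) for ORIN1001 to vehicle, 3 (6) for docetaxel to vehicle, 2 (0) for combination to docetaxel, in monocytes 1 (0) for ORIN1001 to vehicle, 1 (0) for combination to docetaxel, in DC 1 (0) for ORIN1001 to vehicle, 0 (1) for combination to docetaxel, 0 (3) for combination to ORIN1001, in NK cells 0 (3) for docetaxel to vehicle, 0 (1) for combination to vehicle, 0 (2) for combination to ORIN1001, in T cells 3 (6) for docetaxel to vehicle, 0 (1) for combination to vehicle, 1 (3) for combination to ORIN1001. The value was negative there for Ifi209 in macrophages (-0.199, ORIN1001 to vehicle), Ifi213 in monocytes (bound -0.328, docetaxel to vehicle), Ifi213 in monocytes (bound -0.632, combination to vehicle), Ifi213 in monocytes (bound -1.209, combination to ORIN1001), Ifi213 in DC (bound -1.326, combination to docetaxel), Ifi202b in DC (bound -0.212, combination to ORIN1001), Ifi209 in NK cells (-0.015, docetaxel to vehicle), Ifi203 in NK cells (-0.117, combination to vehicle), Ifi211 in NK cells (bound -0.397, combination to ORIN1001), Ifi205 in T cells (bound -0.461, combination to vehicle), Ifi205 in T cells (bound -0.582, combination to ORIN1001). In neutrophils outside cluster 3, an alternative chosen after seeing the data, the count was in neutrophils 0 (1) for combination to docetaxel, 2 (6) for combination to ORIN1001. The value was negative there for Ifi202b in neutrophils (-0.048, combination to docetaxel). No paired analysis was possible because each group had 1 library. The single library per group, the few UMIs of Ifi213, and of Ifi205 in neutrophils, NK and T cells, and 3' words shared between copies limit these data. Mitochondrial share (medians 0.426% to 1.22%) and dissociation stress genes also differed between libraries, and their part was not tested.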
